A study of Mus musculus with 112 samples.

Results

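Ephrins, Eph receptors, semaphorins and plexins were followed through mouse epiblast stem cells (EpiSC), the lines and cell types measured beside them, and dissected epiblasts of the early embryo. Members were all probes whose symbol, in any case, begins with Efna, Efnb, Epha or Ephb and a number, Plxn, or Sema and a number. This gave 115 of the 45281 probes on the array, for 51 of 28892 genes (29 of them with more than 1 probe): 5 ephrin-A, 3 ephrin-B, 9 EphA, 5 EphB, 6 secreted semaphorin, 13 membrane semaphorin and 10 plexin genes. One of these, PLXN6-PENDING, has no current symbol and was kept under the name on the array. In all, 43 genes were detected on at least 1 of 112 arrays by any of their 77 detected probes, and 40 on at least 3 arrays by their brightest probe. A total of 12 genes, Efna2, Efna3, Epha10, Ephb3, Ephb6, Plxna1, Plxna3, Plxnb3, PLXN6-PENDING, Sema3c, Sema3g and Sema4c, were tested in no comparison; of these Ephb3 reached 3 arrays, but not within the arrays of any one fit. A further 4 probes, listed under names that RefSeq gives as synonyms of Epha3, Epha5, Ephb1 and Plxnd1, were not counted as members.

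EpiSC are pluripotent lines grown from the post-implantation epiblast, and the study asked whether lines from embryos of different stages are equivalent. There were 18 EpiSC lines of strain R1-129 (65 arrays, passages 10 to 19), started from cavity (4 lines, E5.5 to E6.0), prestreak (3, E6.0 to E6.5), late midstreak (6, E6.75 to E7.5), early bud (2, E7.5 to E8.0) and late bud embryos (3, E7.75 to E8.25). For 4 of them a subline thawed at another time was also grown. EpiSC9 is 1 imported line of strain 129SvJ (3 arrays, passage 24), and 1 further array, EpiSC9_T, carries RNA sent by the laboratory that made it. The cells set beside EpiSC were 1 embryonic stem cell line (ESC, R1-129, 3 arrays, passage 22), 3 induced pluripotent lines (iPSC, made from tail tip fibroblasts of a C57BL6 by C3H hybrid, 3 arrays each) and embryonic fibroblasts (MEF, strain ARC/s, 2 arrays). Single R1-129 epiblasts or ectoderms, their RNA amplified, came from embryos of 3 periods. Cavity (E5.5 to E6.0) and prestreak embryos (E6.0 to E6.5) numbered 4, and late midstreak (E6.75 to E7.5) and late streak embryos (E7.0 to E7.5) numbered 6. The bud period held 7 embryos: 1 no bud (E7.25 to E7.75), 3 early bud (E7.5 to E8.0) and 3 late bud (E7.75 to E8.25). The ages given for the streak and bud periods thus overlap. A further 12 arrays carry amplified RNA of 4 of the EpiSC lines.

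Ephrins are membrane-bound ligands, tethered by a lipid anchor in the A class and by a transmembrane segment in the B class, and Eph receptors are the receptor tyrosine kinases that bind them on the neighbouring cell, with signals that can run into either cell. Semaphorins are secreted or membrane-bound ligands of the plexins, whose cytoplasmic part acts on small GTPases, and many secreted semaphorins need a neuropilin as well. Both systems are known for steering axons and vessels and for keeping cell populations apart in the embryo, including at gastrulation and in the forming somites and neural tube.

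The promoters of 6 members are shown because these genes carry most of what follows. Efna5, Efnb1, Epha7, Ephb1 and Plxna2 were higher both in EpiSC than in ESC and in bud than in cavity and prestreak epiblasts, and Epha1 changed the other way in the embryo. They were picked after the values were seen. Each sequence covers 250 bases before to 50 after the start used in a RefSeq promoter table on build GRCm38.p6, which for Plxna2, Epha7 and Epha1 is not the outer end of the gene record, written 5′ to 3′ on the strand of the gene, with GC boxes (GGGCGG or CCGCCC) in capitals; 44 of the 51 genes have an entry there.
Efna5, chr17:62881268-62881567, minus strand: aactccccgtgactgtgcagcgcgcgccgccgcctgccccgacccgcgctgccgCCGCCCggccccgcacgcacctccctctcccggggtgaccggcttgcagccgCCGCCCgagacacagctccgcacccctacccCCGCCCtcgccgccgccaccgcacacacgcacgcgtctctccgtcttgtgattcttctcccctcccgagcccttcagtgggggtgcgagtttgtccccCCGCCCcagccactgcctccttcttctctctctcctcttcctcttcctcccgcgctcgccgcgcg
Efnb1, chrX:99135811-99136110, plus strand: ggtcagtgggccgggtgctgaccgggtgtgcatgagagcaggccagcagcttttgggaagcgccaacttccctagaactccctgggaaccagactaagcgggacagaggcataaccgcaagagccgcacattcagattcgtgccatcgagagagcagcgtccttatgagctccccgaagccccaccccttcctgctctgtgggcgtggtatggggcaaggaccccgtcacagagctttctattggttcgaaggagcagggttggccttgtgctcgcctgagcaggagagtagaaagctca
Epha7, chr4:28812881-28813180, plus strand: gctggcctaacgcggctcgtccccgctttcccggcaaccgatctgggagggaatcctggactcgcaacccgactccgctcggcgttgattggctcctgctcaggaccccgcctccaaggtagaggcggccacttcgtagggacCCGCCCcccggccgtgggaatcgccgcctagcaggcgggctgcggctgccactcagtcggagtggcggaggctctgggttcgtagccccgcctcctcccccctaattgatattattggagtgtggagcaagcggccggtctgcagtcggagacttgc
Ephb1, chr9:102354644-102354943, minus strand: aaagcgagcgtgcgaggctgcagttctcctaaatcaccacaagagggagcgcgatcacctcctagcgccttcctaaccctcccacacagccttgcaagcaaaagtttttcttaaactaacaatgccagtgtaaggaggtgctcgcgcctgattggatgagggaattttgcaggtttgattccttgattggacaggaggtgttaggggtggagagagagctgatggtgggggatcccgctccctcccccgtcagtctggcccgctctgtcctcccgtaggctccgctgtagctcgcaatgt
Plxna2, chr1:194619579-194619878, plus strand: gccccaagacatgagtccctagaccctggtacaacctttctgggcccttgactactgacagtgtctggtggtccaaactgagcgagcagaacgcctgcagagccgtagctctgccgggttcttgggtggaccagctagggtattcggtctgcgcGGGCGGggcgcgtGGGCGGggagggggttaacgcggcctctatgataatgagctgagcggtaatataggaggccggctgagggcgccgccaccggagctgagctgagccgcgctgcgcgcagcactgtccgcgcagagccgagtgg
Epha1, chr6:42373219-42373518, minus strand: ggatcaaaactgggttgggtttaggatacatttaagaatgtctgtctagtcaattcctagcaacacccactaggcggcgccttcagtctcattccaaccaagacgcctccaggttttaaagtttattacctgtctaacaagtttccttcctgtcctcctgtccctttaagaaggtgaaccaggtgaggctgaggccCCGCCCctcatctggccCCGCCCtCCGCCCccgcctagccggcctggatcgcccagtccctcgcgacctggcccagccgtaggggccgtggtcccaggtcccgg
The Efna5 window holds 4 GC boxes and 38 CpG, more CpG than 95.2% of the 27025 promoters in the table, and its GC content is 73.3%. Epha1 has 3 GC boxes, Plxna2 has 2 and Epha7 has 1, while Efnb1 and Ephb1 have 0; Efnb1, Ephb1 and Epha1 hold 14 CpG each, beside a median of 7 over all promoters. A GC box on either strand occurs in 35.9% of all promoters in the table. CCAAT on either strand is present in the Efnb1, Epha7 and Ephb1 windows and in 37.9% of all promoters. No window holds TATAAA (14.2% of promoters), the octamer ATTTGCAT (1.75%), TAATCC (7.16%) or AGGTGTGA (1.27%) on either strand. No searched motif was thus present in every window, although the GC box and CCAAT each occurred in several, and these counts describe letters only.

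Probes were called detected at a detection p under 0.01, and the share of probes so called was 37.2% on EpiSC arrays, 36.7% on EpiSC9, 35.6% on ESC, 36.1% on iPSC, 33.2% on MEF, 29.6% on amplified EpiSC and 25.6% on epiblast arrays. In probes at background the arrays fell into 7 sets. All 12 ESC and iPSC arrays formed a set with 0 EpiSC arrays, so that in comparisons with them the cell type cannot be told apart from the set, while MEF and EpiSC9 shared a set with 15 EpiSC arrays of 5 lines. The arrays of iPSC line 3 correlated with ESC arrays at r = 0.994 to 0.996 over 12214 genes, whereas lines 1 and 2 did so at 0.923 to 0.946, and for several members the first array of lines 1 and 2 read apart from the other 2. Markers of epiblast and EpiSC had list means of 10.70 log2 units in EpiSC and 4.88 in MEF, where 5 of 7 were undetected, and naive pluripotency markers 5.66 in EpiSC and 9.78 in ESC. ESC, MEF and EpiSC9 are 1 line or preparation each, so their spread was taken from the other groups. All levels are log2 intensities after background correction and quantile normalisation; p-values measure the spread between these samples, and the number of arrays limits the precision. In bulk RNA, fewer cells of a type and less RNA per cell cannot be told apart.

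Compared with ESC, EpiSC had more RNA of 2 ephrins, 2 Eph receptors, 1 plexin and 1 membrane semaphorin, and less of 2 other membrane semaphorins. Efna5, which encodes a lipid-anchored ephrin that guides retinal axons, and Efnb1, the X-linked transmembrane ephrin, were both about 6-fold higher in EpiSC. By limma's moderated test on line means with Benjamini-Hochberg adjustment over 15034 genes, 6 of 38 members tested were higher and 2 were lower, against 13.1% of all genes higher and 13.2% lower. Members past the test in either direction made up 21.1% of those tested, which is below the 26.3% of all genes. The median log2 difference was 0.77 over the members tested and 0.019 over all genes.

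Efna5 ranged over the 18 EpiSC lines from 9.67 in PS4 through a median of 10.58 to 11.03 in CAV2, against 7.95, 7.8 and 7.86 on the ESC arrays. Every EpiSC line was thus far above every ESC array, and the SD over the lines was 0.35. The difference was 2.61 ± 0.33 (SE) on the log2 scale, or 6.09-fold (limma adjusted p = 3.46e-06). The second tested Efna5 probe differed by 0.44 ± 0.20 and did not pass (limma adjusted p = 0.120). Efnb1 lay between 7.74 (LMS1) and 10.60 (PS4) in EpiSC lines with a median of 9.52, against 6.90, 6.82 and 6.56 in ESC. The groups did not overlap, although LMS1 came within about 1 log2 unit of ESC, and the difference was 2.70 ± 0.65 (6.48-fold, limma adjusted p = 0.00364).

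Among the receptors, Ephb1, which binds ephrin-B ligands, had levels from 5.39 (LMS1) through 7.83 to 9.25 (LMS4) in EpiSC lines, against 4.89, 4.47 and 4.54 in ESC, where no array detected it. It was detected on 63 of 65 EpiSC arrays. EpiSC means of 7.65 against 4.63 make it at least 4.90-fold higher in EpiSC (limma adjusted p = 0.0145). Epha7, a receptor of the A class with a part in neural tube closure in the mouse, differed likewise. It ranged from 5.62 (LB2) through 6.73 to 7.49 (CAV2) in EpiSC lines and stood at 5.13, 4.83 and 5.07 in ESC, undetected on all 3 arrays. The bound was at least 2.58-fold (means 6.73 and 5.01, limma adjusted p = 0.00612), and 2 of its 4 tested probes passed. The other EphA genes tested did not pass. Ephb2 and Ephb4 narrowly missed, with limma adjusted p = 0.051 and 0.0503, although another Ephb4 probe was higher in EpiSC by 0.94 ± 0.25 (limma adjusted p = 0.00756).

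Plxna2, a receptor for class 6 semaphorins, was the only one of 6 plexins tested to pass: it ranged from 6.98 (LMS1) through 8.52 to 9.77 (LMS4) in EpiSC lines, against 6.45, 6.30 and 6.27 in ESC. The groups did not overlap and the difference was 2.08 ± 0.65 (4.22-fold, limma adjusted p = 0.0224). Sema6d, a transmembrane class 6 semaphorin, had line means of 5.17 (LB2) to 7.22 (LMS4) with a median of 6.08, against 4.81, 4.59 and 4.56 in ESC. It was undetected in ESC and at least 1.63-fold higher in EpiSC (means 6.07 and 4.65, limma adjusted p = 0.0355). Sema4b and Sema4d went the other way. Sema4b, a transmembrane semaphorin, ranged from 9.52 (LMS1) through 10.34 to 10.55 (LMS4) in EpiSC lines and read 11.31, 11.27 and 11.23 in ESC, lower in EpiSC in all 18 lines (log2 difference −1.05 ± 0.28, limma adjusted p = 0.00713). Sema4d, a ligand of plexin-B1, ranged from 5.10 through 5.32 to 5.87 in EpiSC lines, close to background with 41 of 65 arrays detected, against 6.13, 5.84 and 6.20 in ESC (−0.72 ± 0.21, limma adjusted p = 0.0156). None of the 4 secreted semaphorins tested passed. Sema5a differed by 1.19 ± 0.63 at its brightest probe (limma adjusted p = 0.173), while another of its 3 probes was lower in EpiSC by −0.38 ± 0.14 (limma adjusted p = 0.0409).

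The ESC result depends on processing and on the lines entered. Plxna2 did not pass with the deposited values (limma adjusted p = 0.0503), without background correction (0.0531) or without sublines (0.0523). Sema6d did not pass in these settings, nor without a detection filter or with array set as a random block (limma adjusted p = 0.0506 to 0.0758), and Ephb1 did not without background correction (0.0523). Members past the test then numbered 6, 5 and 6 with the deposited values, without background correction and without sublines. Without LMS1 and LMS4, which were often the highest or lowest of the 18 lines, 11 members were higher and 2 lower than in ESC. This is an alternative added after seeing the data, and the share of all genes past its test is not given here. The larger count therefore cannot be read as a result about the members. All 8 genes above were among these 13, joined by Ephb2 (1.64 ± 0.37), Sema3f (1.49 ± 0.56), Sema3a (1.25 ± 0.47), Ephb4 (1.04 ± 0.37) and Plxnb2 (0.75 ± 0.23). EpiSC were lifted from a fibroblast layer. A list of 12 fibroblast markers had summed intensities of 3867 to 24293 on EpiSC arrays and 3330 to 3692 on ESC arrays. Postn was undetected in both. The sum weighs bright markers most and does not show that each marker was higher in EpiSC. The part of fibroblasts in these differences was not tested.

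**Figure D1:**
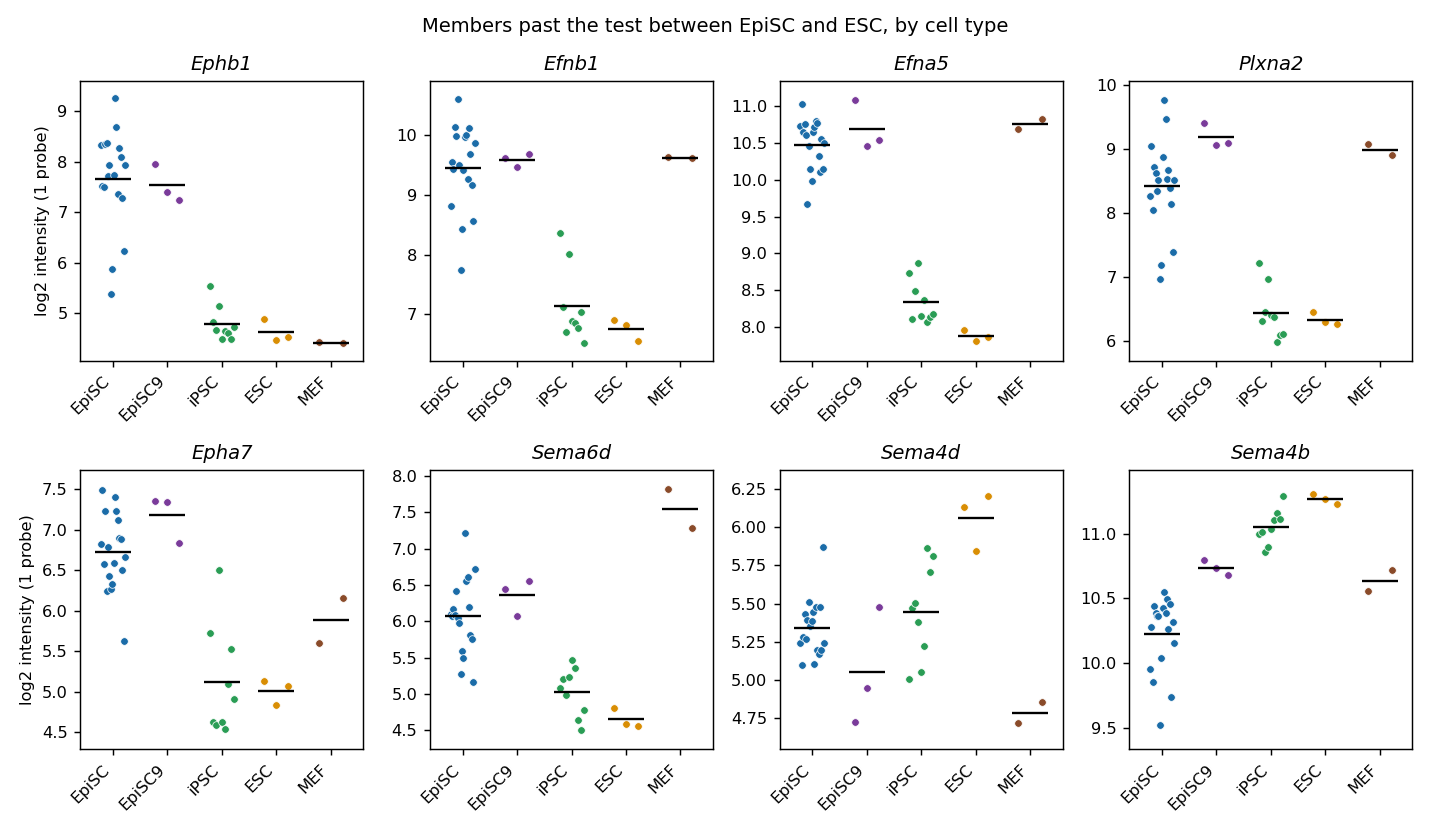
Log2 intensity of 8 members in the cell types; EpiSC points are 18 line means, all other points are single arrays, and black lines are group means. Ephb1, Efnb1, Efna5, Plxna2, Epha7 and Sema6d lie higher in EpiSC than in ESC, and Sema4b and Sema4d lower; MEF lie beside EpiSC for Efnb1, Efna5 and Plxna2 but at background for Ephb1.

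Set against iPSC, 17 of 38 members were higher and 2 lower in EpiSC (limma), where 21.9% of all genes were higher and 20.4% lower (42.3% in either direction, beside 50% of the members). The same EpiSC lines enter this comparison and those with ESC and MEF. All 3 EphB genes tested were higher, as were 4 of 6 plexins and 3 of 4 secreted semaphorins, but only 1 of 7 EphA genes. The highest were again Ephb1, Efnb1, Efna5, Plxna2 and Epha7. Ephb1 averaged 7.65 in EpiSC lines, against 5.53, 4.83, 4.67, 5.14, 4.49, 4.65, 4.6, 4.5 and 4.73 on the 9 iPSC arrays and was detected on 1 of them; EpiSC exceeded the iPSC line means by 2.86 ± 0.54 (limma adjusted p = 0.000179). Efnb1 was higher in EpiSC by 2.32 ± 0.39 (limma adjusted p = 5.74e-05), although the first arrays of iPSC lines 1 and 2 read 8.36 and 8.01, above the 6.53 to 7.12 of the other 7. Efna5 averaged 10.48 in EpiSC, against 8.07 to 8.86 on iPSC arrays, a 4.4-fold difference (2.14 ± 0.20, limma adjusted p = 1.19e-08). Plxna2 was higher by 1.97 ± 0.40 and Epha7 by 1.6 ± 0.27.

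The next members in size were Ephb2 at 1.35 ± 0.36, which binds ephrin-B ligands and guides axons, and Sema3f, a secreted semaphorin that acts through neuropilin-2, at 1.21 ± 0.37. Efnb2, the transmembrane ephrin of arterial endothelium, was higher by 1.15 ± 0.35 (limma adjusted p = 0.0113), with a mean of 7.04 in EpiSC, against 5.62, 5.64, 5.27 and 5.05 on the later arrays of iPSC lines 1 and 2 but 7.26 and 7.0 on their first. Smaller differences, from 0.49 to 1.04, were found for Sema6d, Sema3e, Sema6b, Sema3a, Sema6a, Ephb4, Plxnb2, Plxnd1 and Plxnb1. Lower in EpiSC were Sema4b (−0.83 ± 0.17, limma adjusted p = 0.000368) and Sema4a, a transmembrane semaphorin known from immune cells. Sema4a averaged 7.5 ± 0.49 (SD, 18 lines) in EpiSC and 9.09 ± 0.88 (SD, 3 lines) in iPSC, and differed by −1.6 ± 0.32 (limma adjusted p = 0.000396). The iPSC arrays were not alike for this gene: lines 1 and 2 read 8.87, 9.88 and 10.04 and then 8.56, 10.08 and 10.20, whereas line 3 read 8.13, 7.86 and 8.23, beside a mean of 8.21 in ESC.

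Without iPSC line 3, 11 members were higher and 2 lower, and 17.5% and 16.9% of all genes were; Efnb2, Sema3f, Sema6a, Sema6d, Sema3a and Plxnd1 no longer passed (limma). Ephb1, Efnb1, Efna5, Plxna2, Epha7, Ephb2, Sema4a and Sema4b did, and Sema4a then differed by −2.11. Leaving out iPSC line 2 instead gave 10 higher and 2 lower, again without Efnb2. When the first arrays of lines 1 and 2 were left out, 15 were higher and 2 lower. The shares of all genes are not given here for the fits without line 2 or without these first arrays. Lines 1 and 2 also carried visceral endoderm markers, with list means of 6.53 and 6.30 log2 units against 4.94 in line 3 and 4.91 in EpiSC; their part in the differences was not tested.

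Against MEF, which are mesenchymal cells, 11 of the 16 semaphorins tested differed, 6 of them higher and 5 lower in EpiSC. By limma 8 of 38 members were higher and 10 lower in EpiSC, against 22.3% and 20.9% of all genes (43.2% together, beside 47.4% of the members), and the median over all genes was 0.11. Ephb1 was among those higher in EpiSC, with a mean of 7.65 over EpiSC lines, against 4.43 and 4.41 on the MEF arrays, both undetected (mean 4.42, at least 4.14-fold, limma adjusted p = 0.00497). Membrane semaphorins Sema5b (mean 6.27 in EpiSC and 4.51 in MEF), Sema6a (6.08 and 4.44) and Sema4a (7.5 and 5.91), and the secreted plexin-D1 ligand Sema3e (5.93 and 4.36), were higher in EpiSC too, and so was Efnb3 (5.85 and 4.76). All of these but Sema4a were undetected on both MEF arrays. The bounds were at least 1.58-fold for Sema5b, 1.39-fold for Sema6a, 1.25-fold for Sema3e and 1.19-fold for Efnb3, with limma adjusted p between 0.00636 and 0.0458, and Sema4a differed by 1.58 ± 0.53 (0.0199). Sema4d (means 5.34 and 4.78) and Sema6c (4.89 and 4.37) passed as well, but both were undetected in MEF and gave no bound above 1. Efnb3, Sema4a and Sema4d did not pass with the deposited values or without background correction (limma adjusted p = 0.0515 to 0.0843).

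Sema7a, the lipid-anchored semaphorin, was by far the most different of the members lower in EpiSC. Its line means ran from 5.40 (EB1b) through 6.36 to 8.47 (LMS1), against 11.05 and 10.96 in MEF, a 22.6-fold gap (−4.5 ± 0.86, limma adjusted p = 0.000199). Sema5a, a transmembrane semaphorin with thrombospondin repeats, averaged 6.98 in EpiSC, against 9.86 and 10.02 on the MEF arrays (−2.95 ± 0.63, limma adjusted p = 0.000634). Sema3a, the secreted repellent of axons, and Sema3f were lower by −2.67 ± 0.50 and −2.20 ± 0.61, and Epha3, an ephrin-A receptor, by −2.23 ± 0.72. Only Epha3 overlapped among these 5: the mean of line LMS4, 8.63, exceeded the lower MEF array of 8.02. Plxnd1, the receptor of Sema3e, was lower in EpiSC by −1.94 ± 0.36, Sema6d by −1.48 ± 0.49 and Efna1 by −1.06 ± 0.29. Within the array set that MEF shared with 15 EpiSC arrays, EpiSC minus MEF was −4.59 for Sema7a, −2.47 for Sema5a, −2.63 for Sema3a, −2.17 for Plxnd1 and 2.87 for Ephb1.

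Efnb1 (9.63 and 9.61), Efna5 (10.69 and 10.83) and Plxna2 (9.07 and 8.90) were as bright in MEF as in many EpiSC lines and did not pass the test there. A second Efna5 probe did pass, lower in EpiSC by −0.86 ± 0.20 (limma adjusted p = 0.00150). The 12 fibroblast markers had summed intensities of 3867 to 24293 on EpiSC arrays and of 49272 to 49764 on MEF arrays, with 8 of 12 detected on all EpiSC arrays; how far feeder RNA enters the EpiSC levels was not tested.

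**Figure D2:**
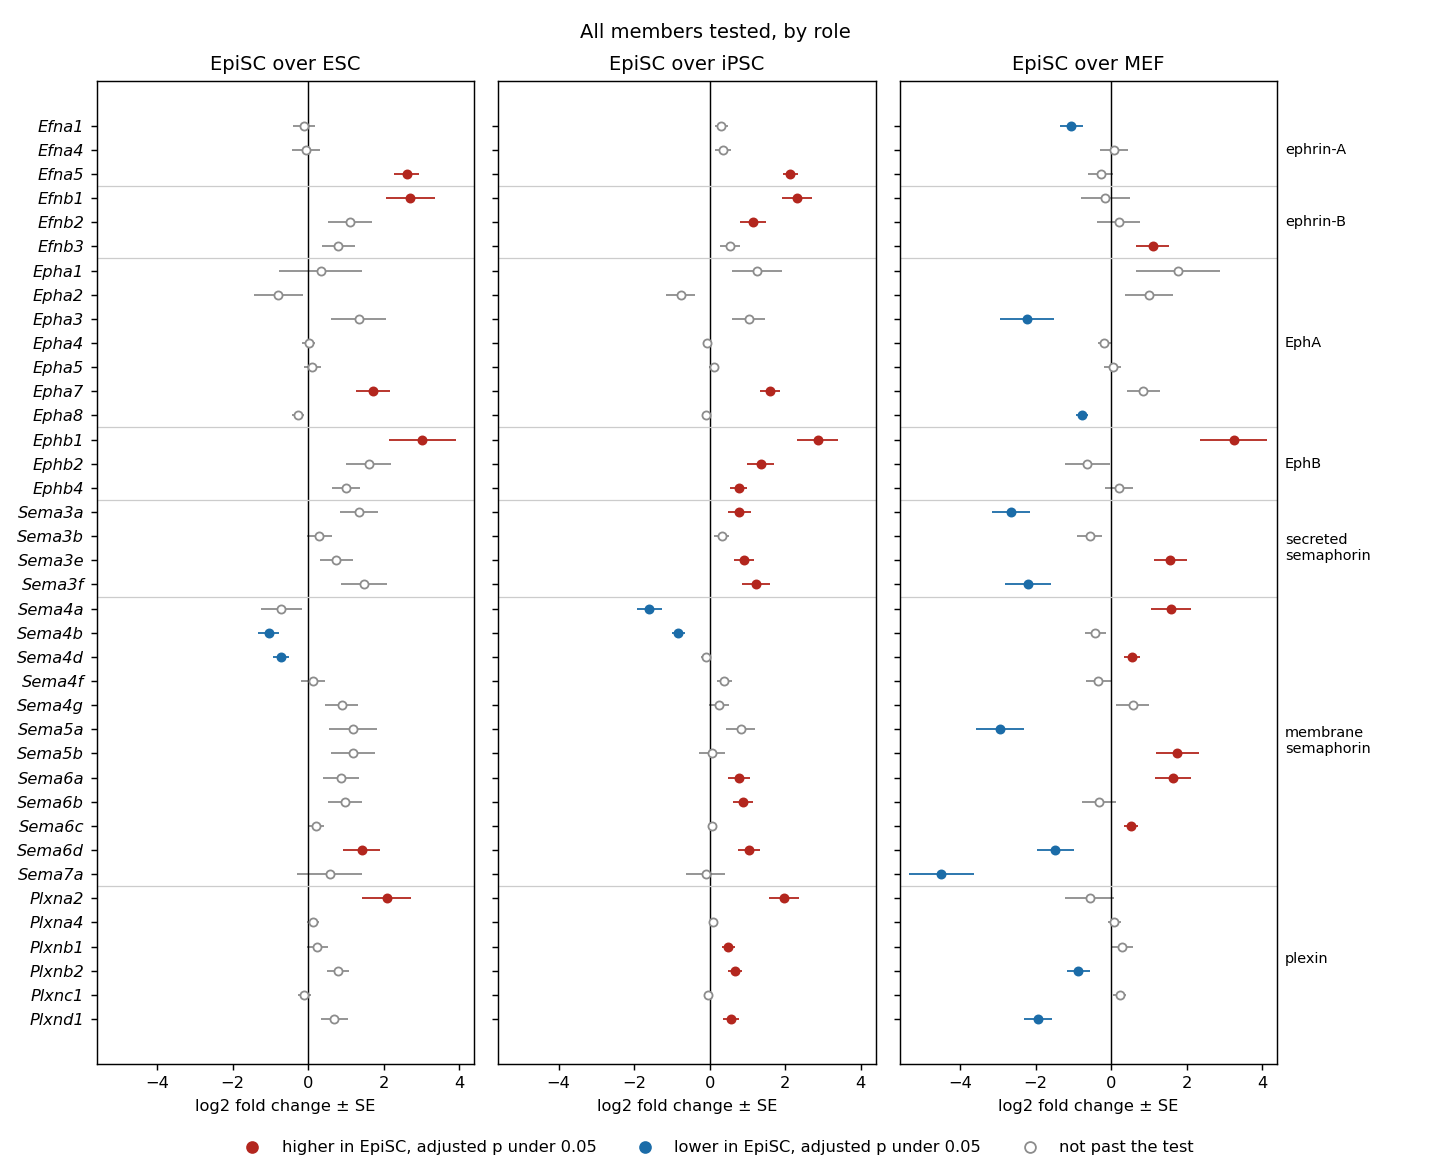
Log2 fold change with standard error of the 38 members tested, by role, for EpiSC over ESC, over iPSC and over MEF; red points are higher in EpiSC, blue points lower, and open grey points did not pass limma's test. Higher calls outnumber lower ones 6 to 2 against ESC and 17 to 2 against iPSC, while against MEF 8 were higher and 10 lower.

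EpiSC9, the imported line, differed from the R1-129 lines in Plxnd1 and Efna1: 2 of 38 members were higher and 0 lower (limma), where 1.34% and 0.339% of all genes were (1.68% together), and 1892 of 15034 genes had an unadjusted p under 0.05. Plxnd1 read 8.55, 8.40 and 8.76 on the EpiSC9 arrays, against 5.21 (EB1a) to 6.53 (LMS5) in the R1-129 lines. All 3 arrays were above every R1-129 line, 5.97-fold on average (2.58 ± 0.36, limma adjusted p = 8.92e-05). Efna1, the ephrin that binds the EphA2 receptor, read 6.73, 7.22 and 6.53 in EpiSC9, against 5.0 (LMS1) to 6.20 (CAV2) (1.16 ± 0.29, limma adjusted p = 0.042). It did not pass with a stricter detection filter, with array set as a random block, without sublines or without the second EpiSC9 array, whereas Plxnd1 passed in each. The RNA of EpiSC9_T read 6.64 for Plxnd1 and 6.88 for Efna1. Within the shared array set, EpiSC9 minus EpiSC was 2.81 for Plxnd1 and 1.13 for Efna1. Plxnd1 is known from endothelium, and beside it an endothelial list of 6 genes had a mean of 6.71 in EpiSC9, with 5 of the 6 detected on all 3 arrays, 5.6 in EpiSC9_T and 4.93 in EpiSC; a mesodermal list had 6.47, 7.37 and 4.87. The part of such cells was not tested.

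The 18 R1-129 lines differed from one another in nearly all members. An F test of limma over 65 cultures passed for 33 of 38 members, or 86.8%, beside 85.4% of all 14341 genes, so the families varied between lines about as often as other genes. Cultures of 1 line share their source. The smallest p belonged to Epha1, Efna5 and Epha3 (limma adjusted p = 2.39e-18, 1.01e-15 and 1.99e-13). Sema4d, Epha8, Sema6c, Plxnc1 and Epha4 did not pass. The difference between the highest and the lowest line was 0.80 to 4.56 log2 units over the 33 members, with a median of 1.87, or 1.66 without LMS1 and LMS4.

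Epha1, the first Eph receptor to be identified, had the widest range. LMS1 read 10.17, 10.14 and 10.02 in its 3 cultures, LMS4 read 6.82, 6.4 and 6.37, and LMS5 read 5.12, 5.78 and 5.77. Replicate cultures of these lines stayed within 1 unit of each other while the lines were up to 4.56 apart. Ephb1 ran the other way in these 2 late midstreak lines, with 5.40, 5.36 and 5.40 in LMS1 and 8.96, 9.44 and 9.34 in LMS4. Epha5, an ephrin-A receptor, passed too but stayed near background, with line means of 4.48 to 5.42 and 4 of 65 arrays detected. Epha3 had its highest mean in LMS4 too, with 8.83, 8.79 and 8.28 there and a lowest line mean of 5.34 in LB2.

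LMS4 was the highest line for 14 of the 33 members and the lowest for 0; over all 12249 genes past the same test it was highest for 18% and lowest for 18.7%. Those 14 were Efnb3, Epha3, Epha5, Ephb1, Ephb2, Plxna2, Plxna4, Plxnb1, Plxnb2, Sema3a, Sema4b, Sema4f, Sema6b and Sema6d. LMS1 was the lowest line for 8 members (Efna1, Efna4, Efnb1, Ephb1, Ephb2, Plxna2, Plxnb1 and Sema4b) and the highest for 4 (Efnb2, Epha1, Epha2 and Sema7a), beside 15.6% lowest and 15.6% highest of all genes. LB2 was lowest for 6 members, among them Epha3, Epha7 and Sema6d, and highest for 1, beside 9.27% lowest and 11.8% highest of all genes. Fibroblast markers had list means of 8.97 in LMS1, 8.68 in LMS4 and 7.48 in LB2, and naive pluripotency markers 5.88, 5.6 and 5.53; their part was not tested. Without LMS1 and LMS4, 30 members passed the F test. The share of all genes past that test is not given here, so this count describes the members only.

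**Figure D3:**
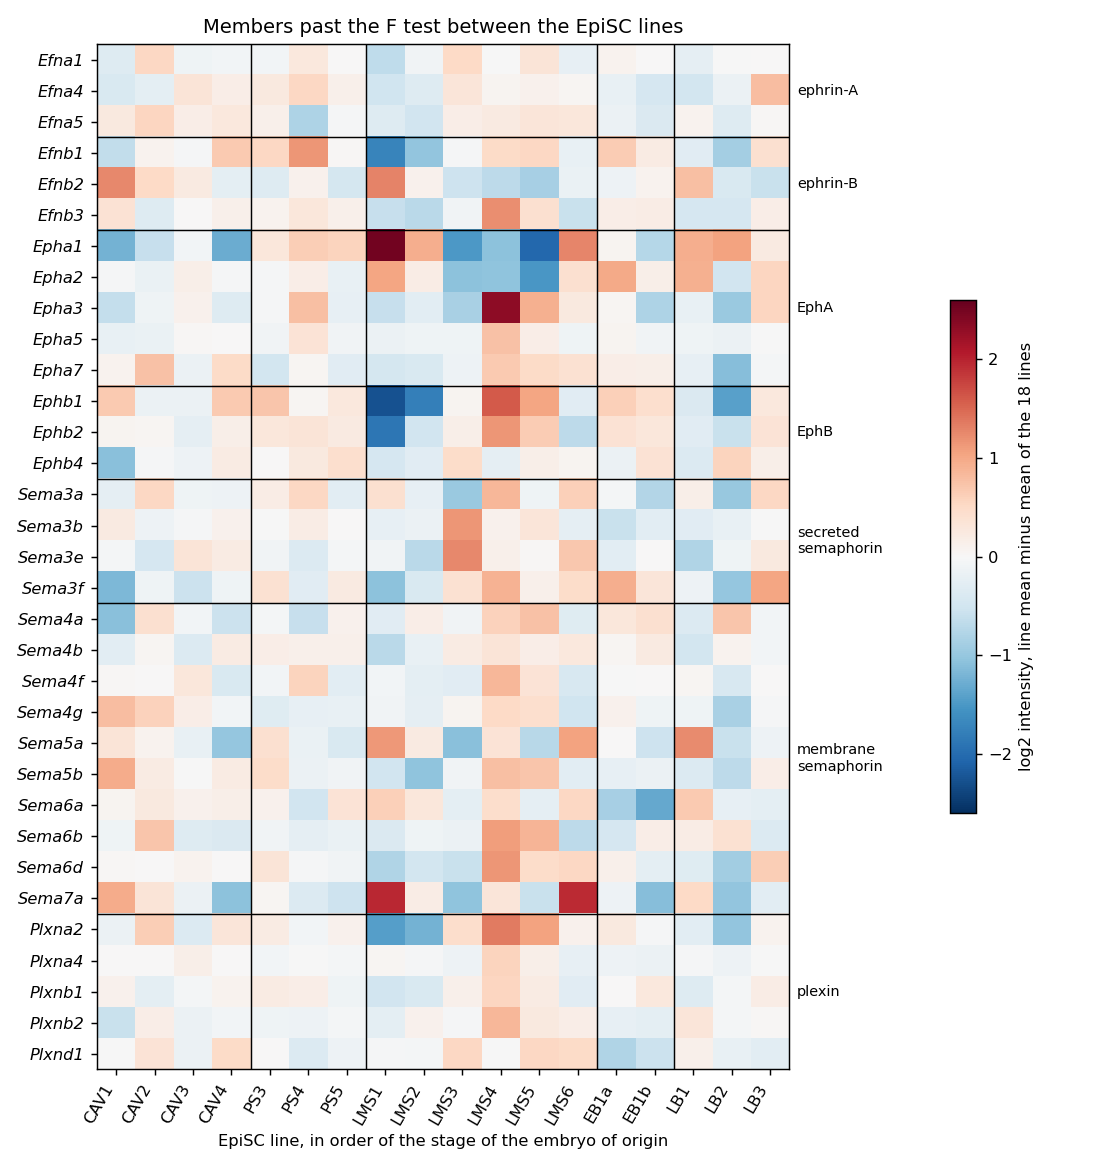
Mean of each EpiSC line minus the mean of the 18 lines, in log2 units, for the 33 members that differed between lines; columns are lines in order of their stage of origin. LMS4 is the highest line in 14 members and LMS1 the lowest in 8, and no member passed the test for stage of origin.

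No member passed the test for the stage of the embryo from which a line was started. In limma's F test over 5 stages, 0 of 38 members passed, beside 0.0139% of all genes; 2 members, Sema6a and Plxnd1, had an unadjusted p under 0.05 (adjusted p = 0.380 and 0.389), as did 1179 of 14341 genes. No alternative setting gave a member past this test. Sema6a, a transmembrane ligand of plexin-A2, averaged 6.22 in cavity, 6.07 in prestreak, 6.31 in late midstreak, 4.98 in early bud and 6.15 in late bud lines. The low mean rests on the 2 early bud lines, EB1a and EB1b, whose names share a number and which may be sister lines of 1 origin. Counted as 1 line they also left 0 members past the test. All arrays of both lines lay in the array set that also held MEF and EpiSC9. The sublines of CAV2, LMS2 and LB1 in that set averaged 6.23, 6.01 and 6.05 for Sema6a, and their first thaws in other sets 6.41, 6.72 and 7.45. The part of the array set in the low mean was not tested.

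A subline and the first thaw of the same line differed by over 1 log2 unit in several members. Ephb1 read 8.50, 8.79 and 8.95 in the CAV3 subline, against 6.4, 6.10 and 6.25 in the first thaw of CAV3. The subline was higher by 2.50 with no overlap, and Efnb1 read 10.07, 10.09 and 10.32 in the subline and 8.68, 8.62 and 8.82 in the first thaw. In LMS2 the difference for Ephb1 had the opposite sign, −1.62. Sema3f was higher by 2.69 in the CAV2 subline, and Sema7a was lower by −2.14 in that of LB1. Over 38 members the absolute difference between subline and first thaw had a median of 0.34 in CAV2, 0.76 in CAV3, 0.35 in LMS2 and 0.37 in LB1. In the same order 6, 11, 5 and 5 members differed by over 1 unit. The share of all genes that did so is not given here, so these counts describe the members only. Subline and first thaw shared no array set in any of the 4 pairs and differed in passage. Thaw, passage and array set therefore cannot be told apart, and these differences were not tested.

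In the embryo, Efnb1, Epha7, Plxna2 and Sema5a left background between the cavity and the bud stages, Efna5 and Ephb1 rose from a detected level, and Epha1 and Efna4 fell. These 17 embryos and 4 EpiSC line means, all from amplified RNA, were fitted together, and 32 members were tested. In bud embryos 13 members were higher and 5 lower than in cavity and prestreak embryos (limma), where 17.9% and 16% of all 12019 genes were (33.9% together, beside 56.2% of the members). Members had a median log2 difference of 0.69 and all genes one of 0.083. In streak embryos 4 members were higher and 0 lower than in cavity and prestreak embryos, beside 3.9% and 2.39% of all genes (6.29% together). Bud embryos had 7 members higher and 3 lower than streak embryos, beside 15.9% and 15.6% of all genes (31.5% together). These calls rest on the brightest probe of each gene. Of 11 members with several tested probes, some had another probe with a different outcome. In 4 of them 1 probe passed and another did not for bud against cavity and prestreak embryos, and in 5 for bud against streak embryos.

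Efnb1 was at background until the bud period. That period includes the single no bud embryo, which had its lowest Efnb1 value (6.09), and 6 of its 7 embryos detected the gene. The 4 cavity and prestreak embryos read 5.14, 4.57, 4.64 and 4.68, the 6 streak embryos 4.57 to 6.03 with a median of 5.09, and the 7 bud embryos 6.09 to 8.90 with a median of 7.38. Undetected in both earlier periods, it was at least 2.13-fold higher in bud than in cavity and prestreak embryos (means 7.58 and 4.76, limma adjusted p = 3.21e-05) and at least 2.40-fold higher than in streak embryos (mean 5.21, 9.89e-05). Epha7 followed the same course, with 4.43, 5.03, 4.49 and 4.68, then 4.98 to 6.04 around 5.18, then 6.71 to 8.11 around 7.65. Its bounds in bud embryos were at least 1.91-fold over cavity and prestreak (means 7.43 and 4.66, limma adjusted p = 1.07e-05) and at least 2.16-fold over streak embryos (mean 5.41, 0.000168).

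Plxna2 was detected earlier. It was undetected in cavity and prestreak embryos (4.78, 5.32, 4.48 and 4.63), low in 2 of 3 late midstreak embryos (4.74 and 5.32) and present in the third (8.22) and in all 3 late streak embryos (8.70, 7.8 and 6.94). Bud embryos held 7.28 to 8.31, with a median of 8.01. The streak period thus mixed both states, with means of 6.95 against 4.80 (at least 1.38-fold, limma adjusted p = 0.0358), and bud embryos were at least 2.65-fold higher than cavity and prestreak ones (mean 7.90, 0.000417). Sema5a went up in both steps: 5.20, 5.54, 5.01 and 5.49, then 5.72 to 6.76, then 7.14 to 8.13. The difference in bud embryos was at least 2.21-fold against cavity and prestreak embryos (means 7.64 and 5.31, limma adjusted p = 6.49e-07), and streak embryos, with a mean of 6.26, lay between and passed against either side (0.0297 against cavity and prestreak, 0.000145 for bud against streak). The streak calls were not firm: Sema5a and Plxna2 did not pass against cavity and prestreak embryos with the deposited values (limma adjusted p = 0.160 and 0.132), without background correction (0.172 and 0.142) or with amplified arrays normalised on their own (0.184 and 0.0993).

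Efna5 and Ephb1 were well detected from the cavity stage on and higher later. Efna5 read 9.73, 10.39, 10.42 and 9.77 in cavity and prestreak, 10.68 to 11.77 in streak and 11.22 to 12.17 in bud embryos. Streak exceeded cavity and prestreak by 1.16 ± 0.24 (limma adjusted p = 0.00431) and bud did so by 1.67 ± 0.24 (1.82e-05), with no overlap in either. Ephb1 read 7.83, 8.75, 8.68 and 7.57, then 8.96 to 9.95, then 9.43 to 10.31, and differed by 1.24 ± 0.36 and 1.74 ± 0.35 (limma adjusted p = 0.0429 and 0.000682). The first of these did not pass without a detection filter (0.0731) or on leaving out any of 7 single embryos (up to 0.192). Other members higher in bud than in cavity and prestreak embryos were Efna1 (1.72 ± 0.37), Ephb2 (1.29 ± 0.30), Sema4b (1.08 ± 0.28), Ephb4 (1.05 ± 0.25) and Sema3b (1.01 ± 0.39). Ephb4, the venous receptor of ephrin-B2, completed the 3 of 3 tested EphB genes that were higher. Epha4, at least 1.21-fold higher (means 6.77 and 5.78), and Sema4g, without a bound (5.5 and 4.5), also passed (limma adjusted p = 0.0224 and 0.0389), detected in only 3 and 1 of the 7 bud embryos and in 0 of the earlier 4.

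Epha1 fell. It read 9.03, 8.94, 9.57 and 8.97 in cavity and prestreak and 8.47 to 10.08 in streak embryos, then 7.6 in the single no bud embryo, 5.97, 7.15 and 4.45 in early bud and 7.18, 4.48 and 4.44 in late bud embryos. All bud embryos lay below all earlier ones, but they spread from a clear signal to background, with 3 of 7 detected. Bud embryos were 9.38-fold lower than cavity and prestreak embryos (−3.23 ± 0.63, limma adjusted p = 0.000491) and 10.2-fold lower than streak embryos (−3.35 ± 0.56, 0.000192). Efna4, a lipid-anchored ephrin, also fell: it read 4.4 to 5.6 in bud embryos, where none detected it, against 6.14 to 7.69 in streak embryos. Cavity and prestreak embryos held 5.23 to 7.10, which overlaps the bud range. In bud embryos Efna4 was at least 1.07-fold lower than in streak embryos (means 4.67 and 7.04, limma adjusted p = 5.73e-05). Plxnb2, a receptor of class 4 semaphorins, read 9.81 in the no bud embryo but 6.57, 7.76, 6.01, 7.72, 5.64 and 5.81 in the others of the bud period, against 8.50 to 9.04 in cavity and prestreak embryos (−1.64 ± 0.55, limma adjusted p = 0.025). This did not pass with only the groups compared (limma adjusted p = 0.0623), without the 2 embryos whose descriptions name cultured cells (−1.19, 0.121) or on leaving out any of 5 single embryos (0.0525 to 0.0648). Sema4d (means 5.32 in bud and 6.42 in cavity and prestreak embryos) and Sema3e (4.88 and 5.92) were lower and undetected in all bud embryos (limma adjusted p = 0.00656 and 0.0114). Both were also mostly undetected earlier: over all epiblasts, only 2 embryos detected Sema4d and 1 detected Sema3e. Sema3e did not pass without the first prestreak embryo (−0.81, limma adjusted p = 0.0699).

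Marker lists of several cell types moved with the stages. Epiblast markers had list means of 11.22 in cavity and prestreak, 10.50 in streak and 9.0 in bud embryos, and mesoderm markers 4.61, 5.79 and 5.64. Mesp1 (4.41, 8.86 and 7.21) and Tbx6 (5.37, 6.62 and 7.45) carried the mesoderm rise. Meox1, Hand1 and Foxc2 were undetected in all 3 periods. Extraembryonic ectoderm markers had 6.28, 7.31 and 7.78 with Elf5, Esx1 and Ascl2 undetected in all 3 periods. Cdx2 (5.72, 9.79 and 11.05) and Tfap2c (7.39, 9.82 and 11.39) rose there, whereas Ets2 did not (10.57, 10.47 and 10.39). All 6 neuroectoderm markers were undetected in all 17 embryos. The part of any change in cell mixture in the values above was not tested.

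**Figure D4:**
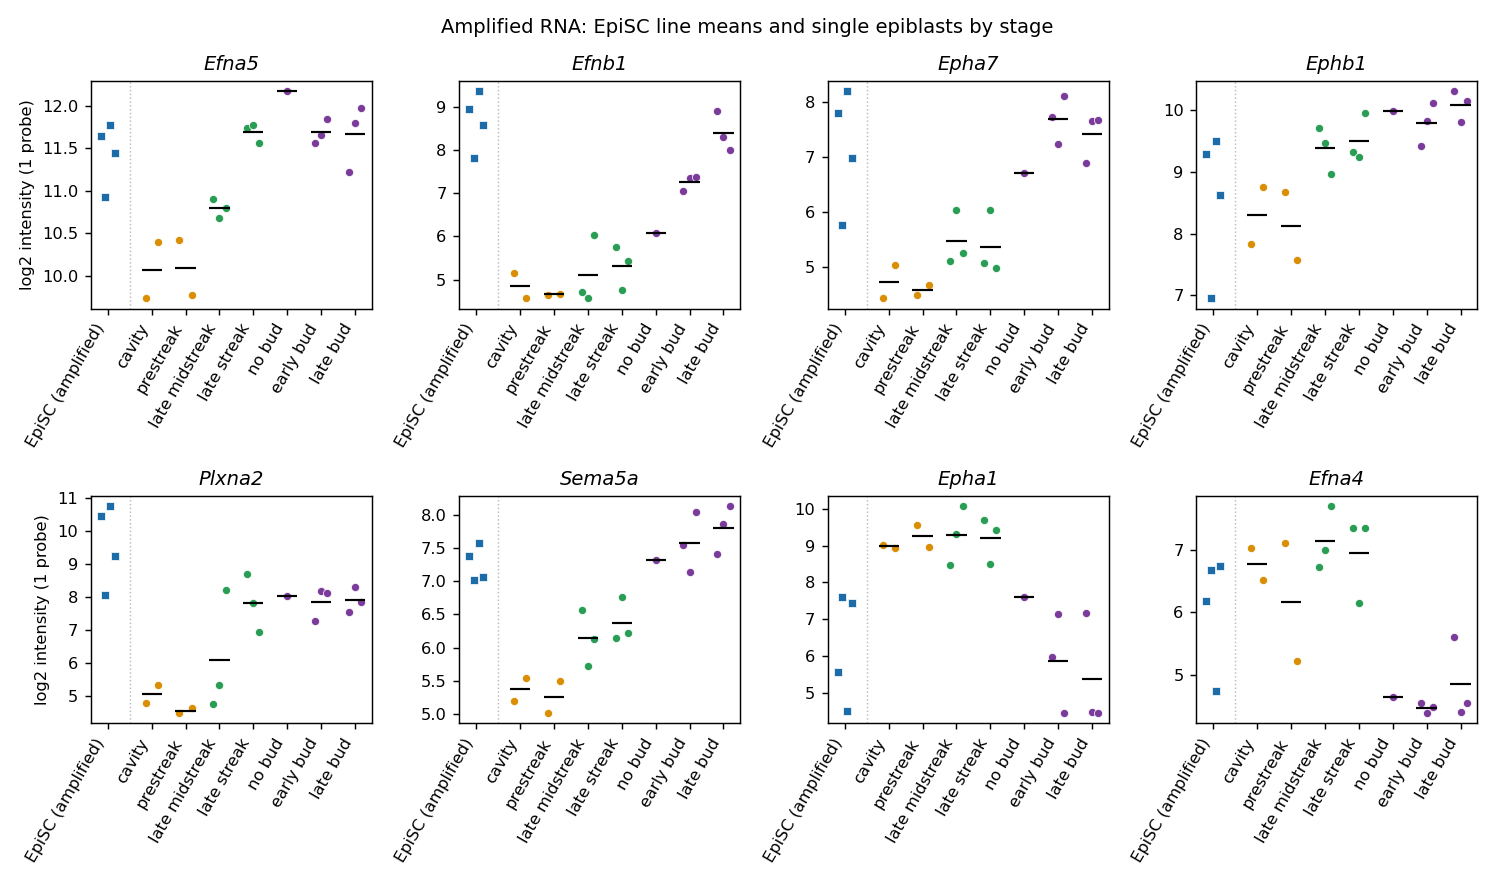
Log2 intensity of 8 members in amplified RNA; blue squares are 4 EpiSC line means (CAV2, PS5, LMS3, LB2), circles are single embryos in order of stage, coloured by period, and black lines are stage means. Efnb1 and Epha7 leave background in the bud period, which includes 1 no bud embryo. Plxna2 does so in a late midstreak embryo and in all late streak embryos, and Epha1 and Efna4 fall in the bud period.

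Amplified EpiSC lines were set against each period of the embryo, with the EpiSC arrays shared by the 3 comparisons. Against cavity and prestreak embryos 12 members were higher and 3 lower (background 21.8% and 14.9%, 36.7% together), against streak embryos 10 and 3 (18.7% and 13.1%, 31.8% together), and against bud embryos 11 and 7 (23.3% and 20.9%, 44.2% together), all by limma. Plxna2 was higher in EpiSC than in every period. Its line means were 10.46 (CAV2), 8.06 (PS5), 10.75 (LMS3) and 9.25 (LB2), so PS5 lay within the bud range and the other 3 above it. The mean of 9.63 was at least 8.82-fold above cavity and prestreak embryos (mean 4.80, limma adjusted p = 6.61e-06), and the difference was 2.68 ± 0.61 against streak and 1.73 ± 0.60 against bud embryos. The last of these did not pass without CAV2 or without LMS3 (limma adjusted p = 0.0888 and 0.0915).

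Efnb1 stood at 8.94, 7.82, 9.35 and 8.59 in the same 4 lines, above all cavity, prestreak and streak embryos, and CAV2 and LMS3 above all bud embryos too. It was at least 4.55-fold higher than in cavity and prestreak (means 8.68 and 4.76, limma adjusted p = 1.01e-06), at least 5.14-fold higher than in streak (mean 5.21, 1.99e-06) and by 1.10 ± 0.42 higher than in bud embryos (0.0386). Epha7, at 7.8, 5.76, 8.19 and 6.97, was at least 1.61-fold higher than in cavity and prestreak and at least 1.82-fold higher than in streak embryos (means 7.18, 4.66 and 5.41; limma adjusted p = 6.93e-05 and 0.00131), and did not pass against bud embryos. The second tested Epha7 probe passed in none of the 3, with 0.63 against cavity and prestreak and −0.14 against streak embryos.

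Epha1 in amplified EpiSC, at 5.57, 7.6, 4.51 and 7.44, fell in the range of bud embryos and was lower than in cavity and prestreak (−2.85 ± 0.72, limma adjusted p = 0.00339) and streak embryos (−2.96 ± 0.65, 0.00138). Ephb1 did not pass against the earlier periods and was lower in EpiSC than in bud embryos by −1.36 ± 0.35 (limma adjusted p = 0.00394), with 9.30, 6.95, 9.50 and 8.63 in the lines. Sema6a, at 6.91, 6.20, 6.49 and 7.11, was lower than in streak embryos, which held 7.46 to 10.02, by −2.17 ± 0.42 and lower than in bud embryos by −1.89 ± 0.41 (limma adjusted p = 0.000395 and 0.000903).

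Plexins stood higher in EpiSC than in bud embryos for Plxnb2 (2.33 ± 0.55), Plxna2 and Plxnd1 (means 7.20 and 5.67, at least 1.19-fold) and lower for Plxnb1 (−0.86 ± 0.23), so that all 4 tested passed (limma adjusted p = 0.00197, 0.0229, 0.0182 and 0.00434). Plxnd1 did not pass without the 2 embryos whose descriptions name cultured cells (0.0628), without CAV2 (0.069) or without LMS3 (0.0765). Sema3e had means of 6.85 in EpiSC, 5.92 in cavity and prestreak, 5.20 in streak and 4.88 in bud embryos, and differed from each period (limma adjusted p = 0.0387, 0.00036 and 3.3e-05). It was undetected in streak and bud embryos, where the bound was at least 1.45-fold for streak and not above 1 for bud. Sema4b was lower in EpiSC than in bud embryos (−1.31 ± 0.28, limma adjusted p = 0.000862). Culture and embryo differ here also in how the RNA was obtained. Fibroblast markers had list means of 7.57 in amplified EpiSC and 5.47, 5.89 and 6.03 in the 3 periods. Col1a1, Col1a2, Col3a1, Lum, Pdgfrb, Twist2 and Postn were undetected in all 3 periods, Postn also in amplified EpiSC. Dcn, Fbn1 and Fstl1 were brighter in amplified EpiSC than in each period. Thy1 (means 9.19 in amplified EpiSC and 9.29 in bud embryos) and Pdgfra (9.02 and 8.87) were about as bright in bud embryos. The part of fibroblasts in the member differences was not tested.

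Amplification itself moved most members. On 12 amplified and 12 unamplified arrays of the same 4 lines, 21 of 34 members were higher and 7 lower after amplification (limma), beside 44.4% and 34.3% of all genes (78.7% together, beside 82.4% of the members) and a median over all genes of 0.15. Sema3b, a secreted semaphorin, read 2.17 ± 0.20 higher, Plxnb1 1.95 ± 0.14, Sema3f 1.6 ± 0.26, Sema4f 1.47 ± 0.16, Ephb1 1.25 ± 0.29 and Plxna2 1.18 ± 0.22. The lines were not alike for Sema3f, Ephb1 and Plxna2, which were higher after amplification in CAV2, LMS3 and LB2. In PS5 they were lower, at 8.77 against 9.15 unamplified for Sema3f, 6.95 against 7.93 for Ephb1 and 8.06 against 8.52 for Plxna2. Epha2, the receptor of ephrin-A1, read lower by −2.00 ± 0.21, Sema4b by −1.92 ± 0.09, Efna4 by −1.81 ± 0.23 and Epha1 by −1.17 ± 0.13, all with limma adjusted p of 1.25e-07 or less. Efnb2 went undetected on all 12 amplified arrays (means 5.31 and 6.87, at least 1.75-fold lower, limma adjusted p = 4.77e-07), and so did Sema6d (means 4.54 and 5.6). Levels of the amplified and the unamplified arrays were therefore never compared between groups.

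Probes of 1 gene disagreed under amplification. Of 12 members with more than 1 tested probe, 5 had probes with significant changes in both directions. The 4 Epha7 probes read 1.16, 0.65, −0.39 and −0.56, the 3 Ephb2 probes 1.83, 1.05 and −0.74, and the 3 Ephb4 probes 0.63, −0.51 and −1.95. Efna5 had 0.88 and −0.51, and Epha3 had 1.10 and −0.43. In the other 10 comparisons of a pair of groups, 0 genes had probes past the test in opposite directions. Probes of 1 gene still differed there in whether they passed. Such mixed genes were most frequent in bud against streak embryos (5 of 11 with several tested probes) and bud against cavity and prestreak embryos (4 of 11). For EpiSC against ESC they were 4 of 15.

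**Figure D5:**
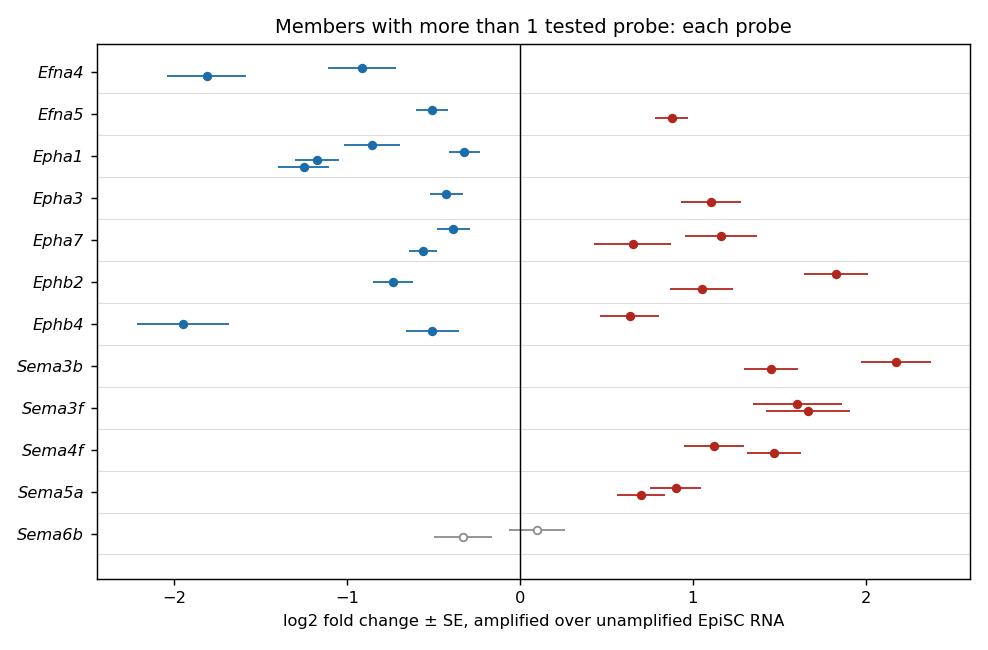
Log2 fold change with standard error of every tested probe of the 12 members with more than 1 such probe, amplified over unamplified EpiSC; red is higher, blue lower and open points did not pass limma's test. Efna5, Epha3, Epha7, Ephb2 and Ephb4 have probes on both sides of 0.

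Genes that carry these signals inside the cell were read from a list of 50 co-receptors, adaptors and effectors, 49 of them on the array. Between EpiSC and ESC 11 of 41 tested were higher and 3 lower, with a list median of 0.17, where 13.1% and 13.2% of all genes were. The highest were 3 collapsin response mediators, cytoplasmic partners of semaphorin signalling, namely Dpysl4 (2.89, limma adjusted p = 0.0477), Dpysl5 (2.86, 0.00286) and Dpysl2 (2.41, 8.17e-05), and Grip1, a scaffold that binds ephrin-B ligands (2.63, 1.32e-05). The lower ones were Mical3, an enzyme of the actin-oxidising family that acts below plexins (−1.89), Tiam1 (−0.83) and Pick1 (−0.83). Against iPSC 13 were higher and 8 lower (all genes 21.9% and 20.4%), and against MEF 8 and 11 (22.3% and 20.9%), with Dpysl5 (at least 10.9-fold, means 9.05 and 4.52) and Crmp1 (at least 7.10-fold, means 8.43 and 4.42) highest, both undetected in MEF, and Farp2 (−3.18), Mical2 (−3.15) and the neuropilin Nrp1 (−2.84) lowest.

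In bud embryos 11 of 33 of these genes were higher than in cavity and prestreak embryos and 3 lower (17.9% and 16% of all genes). Dpysl2 (2.50, limma adjusted p = 2.87e-06), the neuropilin Nrp1 (at least 1.71-fold, means 7.27 and 4.94, 0.00365) and Dpysl4 (1.81, 0.00285) were highest, with Nrp1 undetected in cavity and prestreak embryos. Gipc1, an adaptor of plexins, was lower (−1.52, limma adjusted p = 0.00655), as were Crmp1 and Mical3, both undetected in bud embryos (means 4.93 and 5.08 there, against 6.54 and 6.57). Streak embryos had 5 higher and 0 lower than cavity and prestreak embryos (3.9% and 2.39% of all genes), led by Dpysl2 (1.89) and the kinase Fes (1.54). Bud embryos had 5 higher and 6 lower than streak embryos (15.9% and 15.6% of all genes), with Crmp1 at least 2.06-fold lower (means 4.93 and 7.99, limma adjusted p = 5.07e-05). Amplified EpiSC had 9, 9 and 12 genes higher and 4, 4 and 8 lower than cavity and prestreak, streak and bud embryos, where 21.8%, 18.7% and 23.3% of all genes were higher and 14.9%, 13.1% and 20.9% lower. Dpysl4 was higher by 4.11, 3.81 and 2.29 and Nrp1 by at least 7.85-fold (means 9.46 and 4.94) and by 3.43 and 2.20 log2 units. EpiSC9 differed from the R1-129 lines in 1 of 41, Arhgef15 (1.13, limma adjusted p = 0.0452), beside 1.34% of all genes higher and 0.339% lower. After amplification 17 of 34 were higher and 10 lower, beside 44.4% and 34.3% of all genes.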

How the data were processed

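RNA was measured on 112 Illumina bead arrays. Per the labels, 230 ng of total RNA was labelled with TotalPrep, while MessageAmp II was used to amplify the RNA of single epiblasts and of 12 EpiSC arrays beforehand. BeadStudio gave the bead summaries, per the submitters' processing notes; its version, the array type and the genome build are not given in the sources used here. Per the file headers, the deposited intensity table has, for 45281 probes, a raw linear intensity and its detection p-value. A second, processed one deposited by the authors has 31646 probes on a log2 scale, with medians of 6.87 to 6.94 and the method not stated; 3 of its columns matched another array best, and it served only as an alternative.

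Background was estimated and removed from these intensities through the detection p-values (neqc), and the arrays were quantile normalised together and put on the log2 scale with an offset of 16 (limma 3.58.1, R 4.3.3). The probe with the highest mean stood for each gene. Current symbols came from RefSeq names: 14728 genes matched a symbol, 5203 a synonym and 8961 kept their name, among them 4 that only a synonym would tie to a member. Genes were tested when detected (p under 0.01) on at least 3 arrays of the fit. Line means were the unit for cell types and stage of origin, cultures for differences between lines, single embryos and line means for epiblasts, and arrays with line as a term for amplification. Tests were limma's moderated 2-sided ones with an intensity trend; p-values were adjusted by Benjamini-Hochberg across every gene of the fit and read at 0.05. Values after ± are standard errors of log2 differences unless SD is stated, and log2 differences are the first group minus the second. Where no array of the dimmer group detected a probe, the bound given (at least N-fold) sets the mean of the brighter group against, per array, the higher of the probe's own value and the lowest value among detected probes. The steps were tested on simulated data. Figures were drawn with matplotlib 3.10.9 under Python 3.11.15.

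Members with full values were, per comparison, at most the 8 highest and 8 lowest past the test and those whose probes disagreed; pathway genes were the 4 highest and 4 lowest. Members, lists and tests were chosen with earlier results of these data known. Replicate numbers were not used to pair samples in the main tests. Same-numbered EpiSC cultures of different lines deviated with a mean r of 0.028. Amplified and unamplified arrays of 1 line and number did so with −0.048 (3 of 12 best with their own number). The titles give these arrays the same line and number, and a low r after amplification cannot exclude that they share RNA. The fit with the RNA sample as a replicate block is therefore given as an alternative. Alternatives used the deposited values, uncorrected background, no or a stricter detection filter, every probe on its own, only the groups compared, array set as a random block, no sublines, separate normalisation of amplified arrays, replicate blocks, leaving out replicates, lines or embryos, and 2 added after seeing the data.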

Additional observations from a re-analysis of the deposited data

Results flagged for a closer look

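A gap test compared the highest or lowest sample of each group of 4 to 7 samples with its nearest neighbour, for members tested; it picked out 5 of 137 values, and chance picks about 1 in 20. Epha1 read 9.57 in the first prestreak embryo, above 8.94 to 9.03 in the other cavity and prestreak embryos. The no bud embryo stood above the other 6 embryos of the bud period for Ephb2, at 10.36 with the next at 9.29, and for Sema6a, at 9.43 with the next at 8.61. Among the 4 cavity lines, CAV2 was highest for Sema3a at 6.83, with the next at 6.19. Among the amplified lines, LMS3 was lowest for Plxnb2 at 8.41, with the next at 9.59.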

How the results depend on the processing

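No named member past a test changed direction under any alternative at the probe that stood for it; with every probe on its own, amplification gave 12 in place of 7 members with a lower probe, and Efna5, Epha3, Epha7, Ephb2 and Ephb4 had probes in both directions. Streak against cavity and prestreak embryos gave 4 members past the test, but 2 with the deposited values, 2 without background correction, 1 without a detection filter, 2 with amplified arrays normalised on their own, 2 without the 2 embryos whose descriptions name cultured cells, and 1 to 3 on leaving out an embryo. Those 2 embryos also took bud against streak to 6 of 10 (8 to 11 on leaving out 1 embryo). EpiSC against ESC gave 5 without background correction, 8 to 12 on leaving out an ESC array (12 without the first) and 13 without LMS1 and LMS4, in place of 8. EpiSC against iPSC gave 12 to 15 in place of 19 on leaving out a line, the lowest without line 2. EpiSC9 gave 1 in place of 2 with a stricter filter, with array set as a random block, without sublines or without its second array. Other comparisons stayed within 1.5 times their count. Shares of all genes under these alternatives are not given in this section, so the counts describe the members only. Of 1833 values of single members under alternatives, 119 no longer passed. With the culture number as a replicate block, 33 members still differed between lines, and with the RNA sample as a replicate block 26 in place of 28 changed with amplification; Efnb1 was lost (limma adjusted p = 0.0642). Detection limits what can be said of members near background, and 12 of 51 genes were tested in no comparison.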
